A study of Mus musculus with 8 samples.

Results

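The Sec14-like genes Sec14l1, Sec14l2, Sec14l3, Sec14l4 and Sec14l5 encode lipid-binding proteins, and their RNA was followed in the kidney of normal and diabetic mice. The members were all 7 non-control probes whose gene name in the scanner files was one of the 5 genes, out of 56605 non-control probes on the array. Sec14l1 and Sec14l3 had 2 probes each, and the other genes had 1. The family was chosen by the measured difference of Sec14l3 between the normal arrays and those of untreated diabetic mice. The differences of its members from normal kidney are therefore given as a description, with no test. Lepr, the chromosomal neighbours and the gene lists were tested in untreated diabetic against normal kidney. The lists were chosen with earlier results of these data known, so their counts there are read as a description. Tests are given among the db/db groups for the 4 probes measured there, and 0 of them passed, as did 0 of all 33639 probes tested.

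RNA came from whole kidney of 8 male mice aged 20 weeks, in 4 groups of 2. The normal mice were C57BLKS/J Iar m+/m+, and all other mice were C57BLKS/J Iar +Leprdb/+Leprdb, called db/db, which lack the long leptin receptor and become obese and diabetic. As the labels write the genotypes, the normal mice also carried the m allele, which the db/db mice did not, so both loci differ between them. Of the db/db mice, 2 were untreated, 2 received a control miRNA in nanoparticles labelled PEI (polyethylenimine), and 2 received a miR-181b-5p mimic in the same kind of nanoparticles. The sources used here do not give the dose, route or schedule. The study asked what the mimic changes in diabetic kidney.

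Sec14-like proteins carry a CRAL-TRIO domain, a pocket that holds 1 hydrophobic lipid molecule and lets it move through the watery cytosol, and a GOLD domain, which serves contacts with other proteins or membranes. Sec14l2, also known as supernatant protein factor or tocopherol-associated protein, binds squalene and vitamin E and stimulates a step of sterol synthesis. Sec14l3 and Sec14l4 are its close relatives. Sec14l1 dampens signalling by the viral RNA sensor RIG-I, and Sec14l5 is the member most like Sec14l1.

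The probes are 60-base DNA strands that capture labelled RNA copies. These 2 are shown because each reads a protein-coding transcript of a gene whose other probe lies elsewhere in the gene, so the results of both probes can be compared. The Sec14l3 probe shown starts at base 1189 of its transcript and lies on chromosome 11 of mm9 from 3976255 to 3976314. The Sec14l1 probe shown starts at base 2097 and lies on chromosome 11 from 117017699 to 117017758. The mimic copies the third sequence, the mature mouse miR-181b-5p of RefSeq, in which capitals mark the seed, bases 2 to 8, that pairs with target RNAs.
Sec14l3 probe: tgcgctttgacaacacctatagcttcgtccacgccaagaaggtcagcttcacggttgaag
Sec14l1 probe: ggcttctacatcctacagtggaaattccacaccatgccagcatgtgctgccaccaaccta
mmu-miR-181b-5p: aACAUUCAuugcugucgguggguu

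The longest run of bases shared by any of the 21 pairs of member probes was 7, so no member probe was a near copy of another. Whether RNA of 1 paralog binds the probe of another was not tested. Levels below are log2 values relative to the 75th percentile of all probes on the same array, so 0 is that percentile, and levels of different probes are not compared. A spot counts as well above background where the scanner software says so. The lowest level that did so on an array ranged from -4.77 to -4.33.

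Between 56.5% and 62.5% of spots on an array were well above background, and 0 were saturated. Between the 2 arrays of a group r was 0.991 to 0.996, except for the mimic (0.976), whose arrays lay more than 2-fold apart for 3463 probes, against 277 to 1022 in the other groups. All arrays shared 1 slide. The normal mice lay in array row 1, columns 1 and 2, so array place and group cannot be told apart. The untreated arrays shared their row and the control miRNA arrays their columns, which does not separate place from group. Lepr, the gene with the db mutation, had levels of 3.65 ± 0.036 in normal and 2.88 ± 0.018 in untreated db/db kidney (SD, n = 2 each, adjusted p = 0.0600 in limma). A dimmer Lepr probe stood at -1.59 ± 0.65 and -3.71 ± 0.067 (SD, n = 2 each, adjusted p = 0.0525 in limma). Neither passed, and the mutant gene still makes RNA, so these levels do not check the genotype. All 15 proximal tubule markers, among them Lrp2 and Slc34a1, were well above background on all 8 arrays.

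Sec14l3 RNA was measured in normal kidney and was not well above background in any db/db kidney. At the probe A_55_P2346639 (chromosome 11, 3978896 to 3978955 on mm9), the scanner intensity was 1105 and 1043 units in normal mice. It was 3.82 and 4.69 units in untreated db/db mice, 4.14 and 4.12 with control miRNA, and 4.13 and 4.28 with the mimic. As levels, these were 1.55 and 1.64 in normal kidney against -6.83 and -6.51, -6.62 and -6.72, and -6.63 and -6.40 in the db/db groups. Both normal arrays stood far above all 6 db/db arrays, and the db/db groups overlapped one another.

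Because the db/db values lie at the background, the size of the difference has only a lower bound. For the bound, each dim array counts at no less than its own lowest level well above background, and the mean of these is set against the normal mean. By this bound Sec14l3 was at least 77.5-fold lower in untreated db/db kidney than in normal kidney, at least 72.0-fold lower with control miRNA and at least 64.3-fold lower with the mimic. These 3 values share the normal arrays. The bound rests on the scanner software's background subtraction and leaves out the spread between arrays. Under normexp, another background correction, run here with 50 units added to all intensities, the measured log2 difference of -8.26 in untreated mice became -4.24. That is smaller than the bound.

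The other Sec14l3 probe, A_66_P128298, shown above and 2.64 kb from the first, gave the same picture. Its intensity was 169.9 and 153 units in normal mice, and between 3.47 and 4.31 units on the 6 db/db arrays. Its level was -1.14 ± 0.017 in the normal group, -6.79 ± 0.19 in the untreated group, -6.91 ± 0.065 with control miRNA and -6.75 ± 0.13 with the mimic (SD, n = 2 each). The bounds here were at least 11.6-fold, 10.8-fold and 9.65-fold lower, in the same order. Over 14 alternative settings of the processing, the measured log2 difference of this probe in untreated mice ranged from -5.78 to -2.08. In bulk tissue, fewer cells that make an RNA and less of it per cell cannot be told apart.

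Sec14l4, the neighbour of Sec14l3 on the chromosome, was also well above background in normal kidney alone. Its probe (chromosome 11, 3947935 to 3947994 on mm9) read 44.1 and 48.8 units in normal mice, or levels of -3.10 and -2.78. The levels were -5.19 and -4.88 in untreated db/db mice, -4.73 and -6.04 with control miRNA, and -5.25 and -5.55 with the mimic. The normal arrays did not overlap with the 6 others, although the values lie close to the background even in normal kidney. Sec14l4 was at least 3.35-fold lower in untreated db/db kidney, at least 3.11-fold lower with control miRNA and at least 2.78-fold lower with the mimic. The measured log2 difference in untreated mice was -2.10, and -0.77 under normexp.

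**Figure D1:**
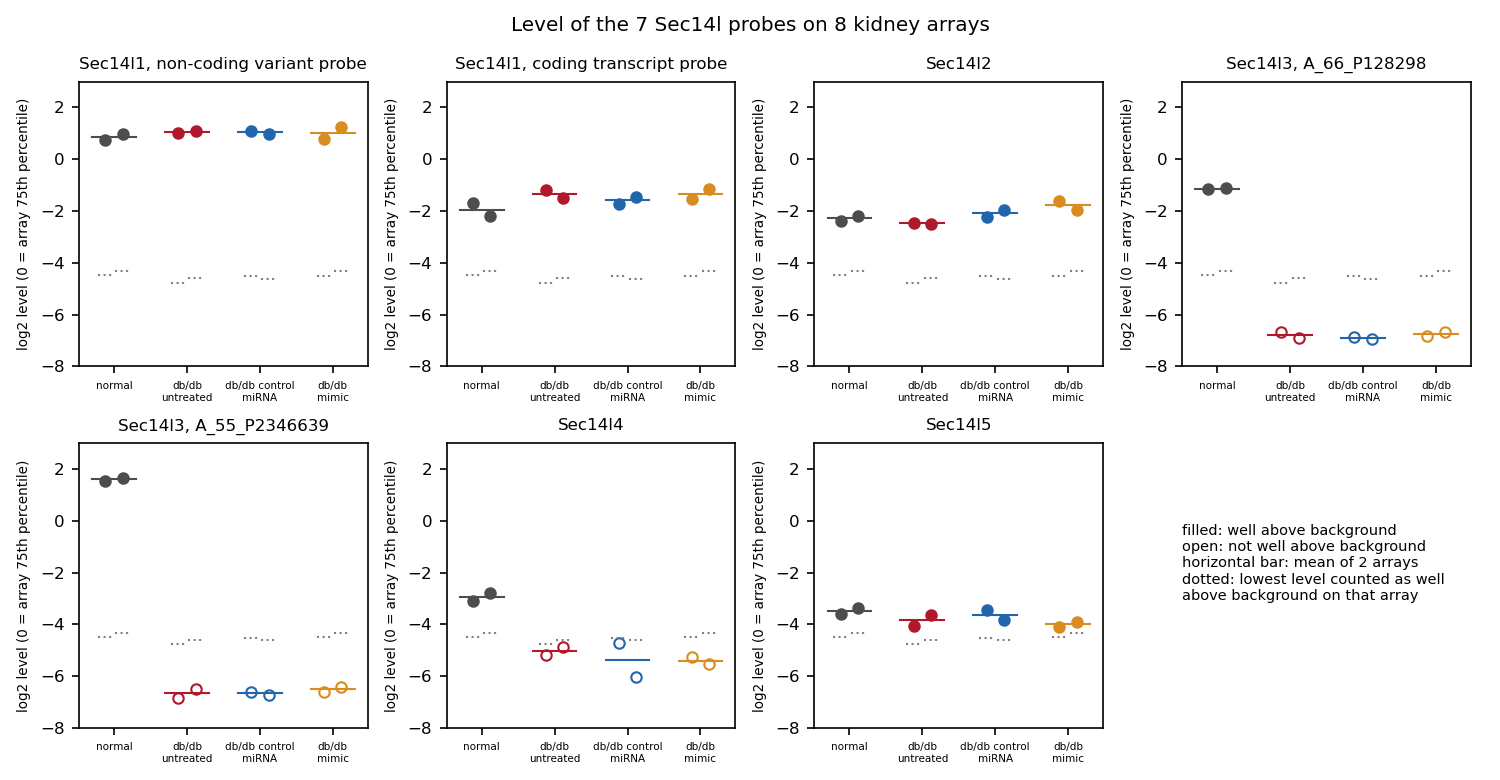
Log2 level (0 is the 75th percentile of the array) of the 7 Sec14l probes on 8 kidney arrays, with 1 panel a probe, 1 point an array and a bar for the mean of 2 arrays. Open points are not well above background, and dotted marks give the lowest level that counted as such on each array. Both Sec14l3 probes and Sec14l4 are filled in normal kidney and open on all 6 db/db arrays, while Sec14l1, Sec14l2 and Sec14l5 are filled on all 8.

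This pattern, well above background on both normal arrays and on 0 of 6 db/db arrays, was met by 3 of the 7 member probes and by 169 of 33639 probes kept for testing, 0.502%. The comparison with normal kidney chose the family, so nothing is read from that share or from the places given next. Among the 169 probes, ordered by the bound against all 6 db/db arrays, the Sec14l3 probes stood in places 1 and 4 (at least 71.1-fold and 10.7-fold) and Sec14l4 in place 24 (3.07-fold). Of these 169 probes, 8 lay on chromosome 11 and 4 had a bound over 10-fold. The 7 member probes all passed the detection filter, 3 of them through the normal group alone.

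Sec14l2, which lies in the same cluster, was measured in every group and did not follow Sec14l3 and Sec14l4. Its probe (chromosome 11, 3997274 to 3997333 on mm9, minus strand) had levels of -2.38 and -2.18 in normal mice, -2.45 and -2.50 in untreated db/db mice, -2.22 and -1.96 with control miRNA, and -1.62 and -1.94 with the mimic. The untreated arrays were the lowest and the mimic arrays the highest. The difference from normal kidney was -0.20 in untreated mice, 0.19 with control miRNA and 0.50 with the mimic.

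Sec14l1 was measured on all 8 arrays by both of its probes. The probe A_55_P2125778, on the protein-coding transcript, had levels of -1.70 and -2.20 in normal mice, -1.21 and -1.49 in untreated db/db mice, -1.72 and -1.45 with control miRNA, and -1.54 and -1.13 with the mimic. The means lay above normal by 0.60 in untreated mice, 0.37 with control miRNA and 0.61 with the mimic, with the control miRNA arrays overlapping the normal ones. The probe A_55_P2721727, on a non-coding variant of the gene 27.7 kb away (chromosome 11, 116990018 to 116990077), stayed between 0.75 and 1.24 on all arrays, and its group means lay 0.16 to 0.21 above normal.

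Sec14l5, on chromosome 16 (5183892 to 5183951 on mm9), was well above background on all 8 arrays but close to the limit. Its levels were -3.62 and -3.36 in normal mice, -4.05 and -3.63 in untreated db/db mice, -3.45 and -3.83 with control miRNA, and -4.09 and -3.91 with the mimic. The untreated and mimic arrays lay below both normal arrays, and the control miRNA arrays overlapped with normal. Between the groups, the means differed by at most 0.51.

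The cluster on chromosome 11 holds Sec14l4, Sec14l3, Mtfp1 and Sec14l2 in this order, per the RefSeq gene table (GRCm38.p6), and the mm9 positions of the Sec14l4 and Sec14l2 probes lie 49.3 kb apart. The protein-coding neighbours taken were Mtfp1 and the 5 genes on either side, 11 in all, and each was well above background on all 8 arrays. In untreated db/db against normal kidney, 0 of these 11 genes passed in limma, with 3.67% of all 22368 genes called, each gene read by its brightest probe. At that share, a count of 0 in 11 says little about the neighbours. Their differences ranged from -0.31 for Tcn2, the vitamin B12 carrier transcobalamin, to 0.61 for Castor1, an arginine sensor. Mtfp1, a mitochondrial fission protein that lies between Sec14l3 and Sec14l2, stood at 3.59 in normal and 3.57 in untreated db/db kidney, and Gal3st1, a sulfotransferase that makes sulfatide, at 1.66 and 1.62 on the other side of Sec14l4.

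**Figure D2:**
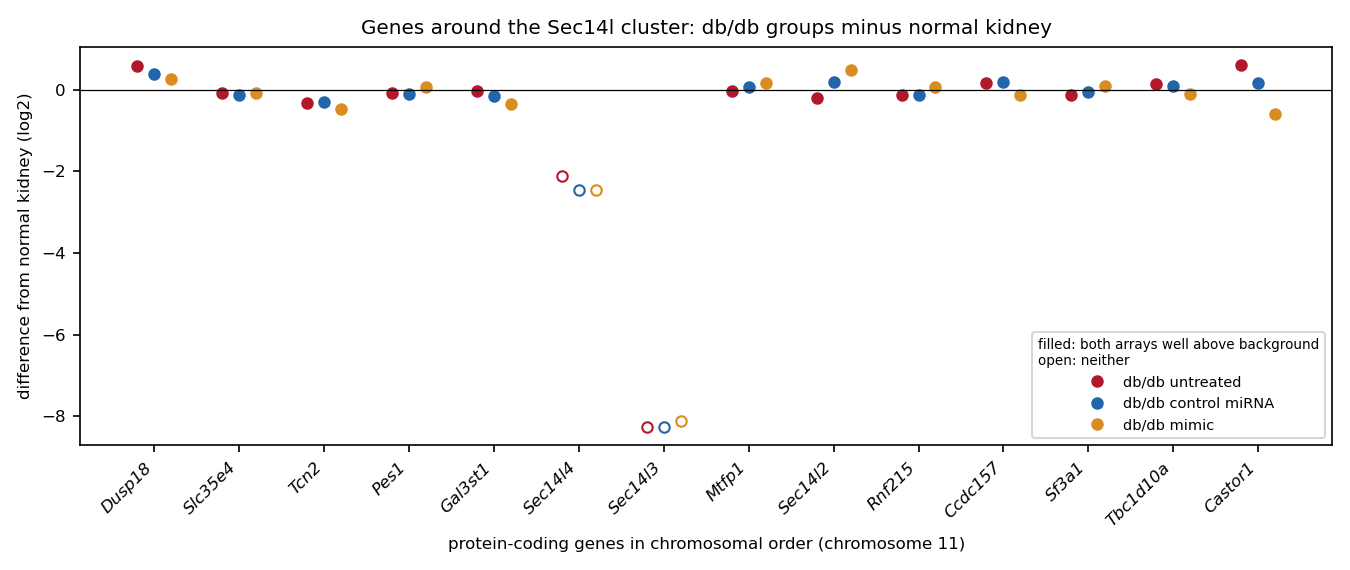
Difference from normal kidney in mean log2 level for each db/db group (n = 2 arrays each), by protein-coding gene in chromosomal order on chromosome 11, each gene at its brightest probe. Open points mark groups in which neither array was well above background, where the true difference has only a lower bound. Sec14l3 lies near -8 and Sec14l4 near -2, while Sec14l2 and the 11 other genes lie within 1 unit of 0.

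The upstream sequences of Sec14l2 and Sec14l3 are shown because these genes lie in 1 cluster and had different levels across the groups. Each is the 250 bases before the start of the RefSeq gene (GRCm38.p6), chr11:4118730-4118979 on the minus strand for Sec14l2 and chr11:4064603-4064852 on the plus strand for Sec14l3. Capitals mark CG dinucleotides.
Sec14l2 upstream: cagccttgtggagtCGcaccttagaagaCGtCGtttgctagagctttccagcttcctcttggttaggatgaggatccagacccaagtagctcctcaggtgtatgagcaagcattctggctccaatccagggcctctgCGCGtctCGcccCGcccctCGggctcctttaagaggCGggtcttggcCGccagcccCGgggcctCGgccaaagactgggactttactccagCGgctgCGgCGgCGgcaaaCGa
Sec14l3 upstream: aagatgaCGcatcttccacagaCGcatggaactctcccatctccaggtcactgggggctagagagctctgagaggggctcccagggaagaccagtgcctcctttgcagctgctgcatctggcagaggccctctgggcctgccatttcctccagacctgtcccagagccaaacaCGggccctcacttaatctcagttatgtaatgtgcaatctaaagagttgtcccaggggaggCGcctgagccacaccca

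The Sec14l2 window held 17 CG dinucleotides and the Sec14l3 window 4, with a median of 6 over 32851 such windows, so 76.5% of windows had fewer than Sec14l2 and 37.8% fewer than Sec14l3. Neither window, read on both strands, held TATAAA (found in 12.4% of all windows), the androgen receptor motif AGAACA (16.1%) or the STAT5 motif TTCNNNGAA (7.02%). These letters are absent from these windows, which says nothing about the factors.

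Among the db/db groups, where the leptin receptor genotype is the same, tests asked whether nanoparticles with control miRNA, or the mimic, went with other Sec14l levels. In limma, 0 of the 4 member probes measured in these groups passed an adjusted p of 0.05 in any of the 3 comparisons, and the share of all 33639 probes called was 0.00% in each. At an unadjusted p under 0.05 there were 1247 probes for control miRNA against untreated, 4797 for mimic against untreated and 3175 for mimic against control miRNA. Sec14l3 and Sec14l4 were not well above background in either group of these comparisons, so they give no fold. The smallest p that an exact permutation test allows here is 0.333, so these p-values rest on a spread shared over probes and groups.

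Sec14l2 had the widest separation of the 4 probes that could be read in every group. With the mimic its mean level was 0.69 above that of untreated db/db mice (95% interval 0.29 to 1.10, adjusted p = 0.198 in limma), a 1.62-fold difference, and both mimic arrays lay above both untreated arrays. Without mimic replicate 1, the array that stood apart, the difference was 0.53 with an adjusted p of 0.374. Without mimic replicate 2 it was 0.85 and passed (adjusted p = 0.0280), a setting in which 5696 probes passed and the lone mimic array is assumed to vary like the other groups.

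The other differences of Sec14l2 did not pass either. Against control miRNA the mimic mean stood 0.30 higher (95% interval -0.10 to 0.71, adjusted p = 0.603 in limma), and control miRNA stood 0.39 above untreated (-0.015 to 0.80, adjusted p close to 1). With untreated arrays lowest, control miRNA arrays next and mimic arrays highest, only the mimic and untreated levels had an interval that left out 0, before adjustment.

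For Sec14l1 the mimic and control miRNA means differed by 0.25 at the protein-coding transcript (95% interval -0.32 to 0.82, adjusted p = 0.729 in limma) and by -0.02 at the non-coding variant (-0.45 to 0.42, 0.977). For Sec14l5 that difference was -0.36 (-0.87 to 0.14, adjusted p = 0.611 in limma). The intervals leave room for changes of up to 1.76-fold higher at the Sec14l1 coding transcript and, for Sec14l5, down to 0.547 of the control level.

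**Figure D3:**
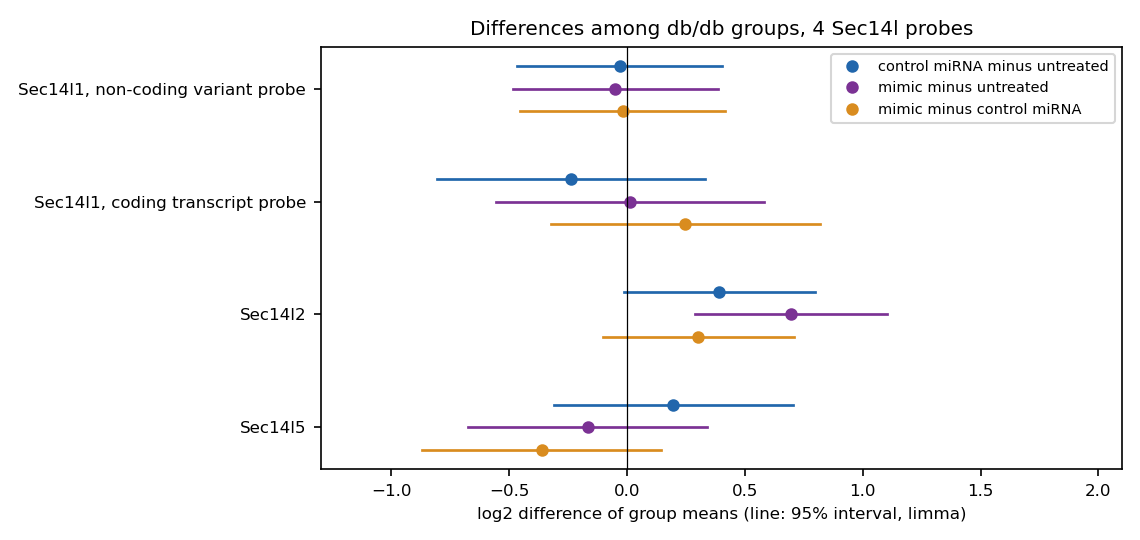
Log2 difference between group means (points) with 95% intervals from limma (lines) for the 4 Sec14l probes well above background on all 8 arrays, in 3 comparisons among db/db groups of 2 arrays each. All intervals cross 0 except that of Sec14l2 for mimic minus untreated (0.29 to 1.10), which did not pass after adjustment.

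The genes with the profile most like that of Sec14l3 were found by the root mean square difference over the 8 arrays, each gene centred on its own mean. Of the 8 Sec14l3 values 6 are at background, so the order rests on the step between normal and db/db arrays that chose the family and on background values. The closest was Slc22a7, an organic anion transporter (0.864 log2 units), followed by Gm6300 (0.978), the organic anion transporter Slco1a1 (1.17), 0610009K14Rik (1.33) and the lipoxygenase Alox15 (1.48), against a median of 3.56 over all genes. Slc22a7 stood at 6.22 ± 0.23 in normal and -0.42 ± 0.19 in untreated db/db kidney (SD, n = 2 each) and was well above background on all 8 arrays. Gm6300 was, like Sec14l3, not well above background on any db/db array. Without normal replicate 2 only 2 of the 5 genes stayed among the closest, with Cidea first, and under another background correction (normexp) 0 did.

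**Figure D4:**
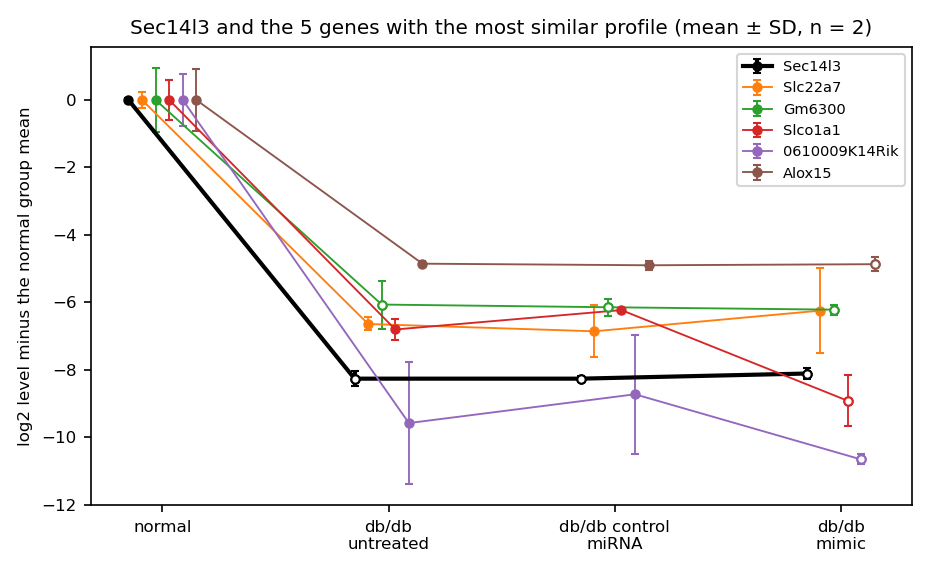
Mean log2 level minus the normal group mean (± SD, n = 2 arrays a group) of Sec14l3 and the 5 genes with the most similar profile. Open points are groups with neither array well above background. Sec14l3 stands at -8.26 in untreated db/db kidney, and all 6 genes lie below the normal mean in each db/db group.

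For Sec14l4 the closest genes were BC049987 (0.267), Snx31 (0.349), Azgp1, a zinc-binding glycoprotein (0.358), Cyp4b1-ps2 (0.361) and AW495160 (0.364), with a median of 1.10 over all genes. Here too 6 of the 8 Sec14l4 values are not well above background, so these distances rest in part on background values. Azgp1 stood at 5.32 ± 0.34 in normal kidney and at 3.09 ± 0.42, 3.03 ± 0.21 and 2.68 ± 0.37 in the untreated, control miRNA and mimic groups (SD, n = 2 each). These names depended on single arrays: without control miRNA replicate 2, the array with the lowest Sec14l4 level, 0 of the 5 stayed among the closest, and without normal replicate 2 and under quantile normalization 1 did.

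Of 20 further CRAL-TRIO proteins, 15 were measured. In untreated db/db against normal kidney 0 of them passed, with 3.67% of all genes called, so a count of 0 in 15 says little about the list, and the median difference was 0.20 against -0.01 over all genes. Kalrn, a guanine nucleotide exchange factor, stood at 0.59 (adjusted p = 0.101 in limma) and Mcf2l at 0.45 (0.194). Ttpa, the vitamin E transfer protein, stood at 0.40 (0.420), and Rlbp1, Clvs1, Clvs2, Bnipl and Mcf2 were not well above background on both arrays of any group. The 6 phosphatidylinositol transfer proteins had 0 calls and a median of 0.17, with Pitpnc1 at 0.29 (adjusted p = 0.478 in limma) and Pitpnm3 at 0.19 (0.648).

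Genes around the functions of Sec14l2 passed in small numbers. Of 18 genes of squalene and sterol synthesis, 3 fell and 1 rose in untreated db/db against normal kidney, where 2.13% of all genes were called lower and 1.53% higher, and the median was -0.09. Cyp51, a demethylase of lanosterol, fell by 2.18 log2 units (limma adjusted p = 0.0310), and Idi1, an isomerase of the early pathway, fell by 1.68 (0.0222). Lss, which closes squalene epoxide into lanosterol, rose by 0.68 (0.0398), while Sqle, which makes that epoxide, stood at -0.30 (0.602). Counting again without any 1 array of the normal or untreated group gave 0 calls in either direction, and without either control miRNA array 1 lower call.

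Of 10 measured genes of vitamin E handling, 3 fell in the same comparison, with 2.13% of all genes called lower. They were Cd36, a fatty acid and lipoprotein receptor (-3.11, adjusted p = 0.0428 in limma), Lpl, lipoprotein lipase (-1.97, 0.0236), and Pltp, the phospholipid transfer protein (-0.68, 0.0389), and the median of the list was -0.05. Without any single array of the normal, untreated or control miRNA groups, 0 genes of the list passed. Of 11 measured genes of RIG-I signalling, which Sec14l1 dampens, 0 passed (median 0.02). With 3.67% of all genes called, that count says little about the list. Trim25, a ubiquitin ligase that activates RIG-I, stood at 1.08 (adjusted p = 0.0759) and Irf7, an interferon response factor, at -1.20 (0.221). The summed level of the list was 79.1 to 87.9 times the 75th percentile on the normal arrays, 106.7 to 114.4 on the untreated, 103.7 to 111.7 on the control miRNA and 212.6 to 353.4 on the mimic arrays. For mimic against control miRNA the median difference of the list was 0.34. A large part of these sums is Trim25, at 4.84 ± 0.16 in normal and 5.92 ± 0.11 in untreated kidney (SD, n = 2 each). It stood at 5.78 ± 0.045 with control miRNA and 7.71 ± 0.59 with the mimic (SD, n = 2 each). That difference of 1.93 did not pass (adjusted p = 0.148 in limma), and no probe had a smaller adjusted p in that comparison. In the mimic against control miRNA, 0 genes of any of these 5 lists passed, with 0.00% of all genes called.

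Levels of other gene and marker lists are given beside those of Sec14l3 and Sec14l4. Androgen-dependent kidney genes, mostly of the proximal tubule, summed to 2070 to 2522 times the 75th percentile on the normal arrays and to 525 to 935 on the db/db arrays, and 8 of 14 fell in untreated db/db kidney (median -2.05), with 2.13% of all genes called lower. They were Slco1a1 (-6.81), Slc22a7 (-6.64), the oxysterol hydroxylase Cyp7b1 (-4.36), Acsm3 (-4.05), Cndp2 (-2.19), Cyp4b1 (-1.91), Ugt2b38 (-1.68) and Cyp2e1 (-1.37). That count was 2 to 3 without any 1 array of the compared groups and 4 without either control miRNA array, against 14 without either mimic array. Proximal tubule markers summed to 2546 to 3041 on the normal and 2587 to 2681 on the untreated arrays. Their sums were 2410 to 2696 on the control miRNA and 1571 to 2881 on the mimic arrays. In untreated against normal kidney 2 of 15 were lower, against the same 2.13% (Slc22a12, a urate transporter, at -1.23 and Ggt1 at -1.16), with a median of 0.01. The median for the mimic against normal kidney was -0.47.

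The 8 measured markers of multiciliated cells, a cell type known to make Sec14l3 in the airway, summed to 30.6 to 32.1 on the normal, 16.6 to 17.1 on the untreated, 18.7 to 20.1 on the control miRNA and 9.18 to 12.7 on the mimic arrays, with 0 of 8 called in untreated against normal kidney (median 0.03). Most of that sum is Mcidas, at 4.65 in normal and 3.41 in untreated kidney (adjusted p = 0.0975 in limma), and Dnah9 stood at -0.92 (0.0523). Rsph1 (0.54), Dnah11 (0.34), Ccdc39 (0.25) and Cfap126 (0.06) had positive differences. Foxj1, which switches on ciliated cell genes, and Dnah5, Rsph4a, Tekt1 and Tekt2 were not well above background on both arrays of any group. Urothelial markers summed to 20.7 to 35.1 on the normal and 14.5 to 14.9 on the untreated arrays (0 of 10 called, median -2.72). With control miRNA the sums were 14.8 to 22.6, and with the mimic 17.2 to 23.6. Upk1b stood at -4.09 (adjusted p = 0.0916 in limma) and Upk2 at -3.55 (0.0941), with SDs of 1.46 and 1.32 between the normal arrays. Much of the urothelial sum is Trp63, at 3.95 in normal and 3.70 in untreated kidney. Adipocyte markers summed to 51.5 to 151.7, 43.0 to 43.8, 42.3 to 49.8 and 49.5 to 53.2 in the same order (0 of 12, median -0.70). Cfd stood at -8.58 (adjusted p = 0.0616 in limma) and Adipoq at -4.82 (0.142), with SDs of 2.94 and 2.58 between the normal arrays. Lep alone had a positive difference (0.12). In untreated against normal kidney 3.67% of all genes were called, so the counts of 0 in these marker lists say little about them.

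Macrophage markers summed to 65.9 to 69.1 on the normal, 31.8 to 33.6 on the untreated, 36.0 to 39.3 on the control miRNA and 25.1 to 81.6 on the mimic arrays. In untreated against normal kidney 2 of 12 fell, with 2.13% of all genes called lower, Ms4a7 by 1.75 and Csf1r by 1.22 on the log2 scale (median -0.89). T and NK cell markers summed to 7.50 to 8.19 on the normal, 5.40 to 5.78 on the untreated, 5.50 to 6.72 on the control miRNA and 4.63 to 5.64 on the mimic arrays (0 of 10, median -0.80), with Cd3g at -1.48 and Cd2 at -1.47. Red cell markers summed to 11.4 to 17.6 on the normal, 130.3 to 195.8 on the untreated, 85.8 to 187.8 on the control miRNA and 9.51 to 259.5 on the mimic arrays (0 of 5 called, median 3.55), with Hbb-b1 at 4.07 and Hba-a1 at 3.94. With 3.67% of all genes called in untreated against normal kidney, 0 of 10 and 0 of 5 say little about those lists. The macrophage and red cell sums lay far apart between the 2 mimic arrays. For all lists, the part of these genes and cell types in the Sec14l3 and Sec14l4 levels was not tested.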

How the data were processed

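Whole kidney RNA of 8 mice (50 ng each, per the labels) was labelled with Cy3 and read on 1-colour Agilent arrays. The deposited scanner files hold the intensity of each spot from Agilent Feature Extraction 12.0.3.1, per the file headers, after its background subtraction and detrending, with small positive stand-ins for spots at background. The authors' deposited series table holds a ratio: it matched the rescaled scanner values divided by the median of the probe over the 8 arrays (r from 0.999993 to 0.999999, 100% of probes with a median log2 ratio of 0). It is linear, rises with expression, and had column medians of 1.05 and 1.08 (normal), 0.979 and 0.992 (untreated), 0.995 and 0.971 (control miRNA), and 0.977 and 1.03 (mimic). The authors' scaling step is not given in the sources used here. Probe positions are those of the array annotation (mm9).

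Outlier spots were left out (4 probes dropped), the spots of a probe averaged, and each array scaled to its 75th percentile before taking log2. The 33639 probes kept were well above background throughout at least 1 group. Names came from RefSeq by accession (33762 probes), symbol (9871) or synonym (310), and 12662 kept the array's name. All 8 arrays entered 1 linear model of group means (limma 3.58.1, R 4.3.3; 4 residual and 2.33 prior degrees of freedom), with Benjamini-Hochberg adjustment over all probes kept. For lists and neighbours a gene was read by its brightest kept probe, with p still adjusted over probes. The model was checked on simulated data. Nothing in the labels says more of how the 2 mice of a group were kept, so p-values measure the spread between these samples.

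The members, lists and tests were chosen with earlier results of these data known. Named were all probes of the 5 genes, the 5 genes closest in profile to a member whose group means spanned over 1 log2 unit, the 5 neighbours on either side of the cluster, and genes of a list that passed in untreated against normal kidney or else the 2 with the largest difference there. Genes given in addition for their known role (Ttpa, Sqle, Lepr, some multiciliated markers) were named after their values were seen. The alternatives were normexp, quantile normalization, the series table, no filter, a filter on all 8 arrays, 1 probe per gene, the 2 compared groups alone, a replicate block, and leaving out each array. The values of 1 gene that passed in a list are not reported here.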

Additional observations from a re-analysis of the deposited data

How the results depend on the processing

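With 2 arrays a group, calls rest on a shared spread, and values at background bound a difference from 1 side only. The difference of Sec14l3 between untreated db/db and normal kidney was -8.26 and became -4.24 under normexp, run with 50 units added to all intensities. Without single arrays it ranged from -8.42 to -8.10. Its sign was the same in all 15 settings that gave a value, but this contrast chose the family, so nothing is read from that. Settings that change only the filter, the probe choice, the arrays of other groups or the block leave this difference as it is. The filter on all 8 arrays leaves out Sec14l3 and Sec14l4. The count of Sec14l probes called stayed at 0 in all settings for control miRNA against untreated and for mimic against control miRNA; for mimic against untreated it ranged from 0 to 1 without single arrays. Deviations of same-numbered arrays correlated at r from -0.028 to 0.16, which cannot show whether the mice were paired. With the replicate block, 0 Sec14l probes were called in all 3 comparisons, and the Sec14l3 difference was -8.26, which the block cannot move. In untreated against normal kidney the replicate block gave 1 lower gene of vitamin E handling in place of 3, and 2 lower and 0 higher genes of sterol synthesis in place of 3 and 1. With no filter on dim probes both lists had 0 calls.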
